A study of Mus musculus with 16 samples.

Results

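The genes described here encode the ligands, receptors and antagonists of the Wnt pathway, together with feedback genes that Wnt signaling induces, in mammary tumors of MMTV-PyMT mice with and without a gene trap in *Resf1*. Members were chosen by gene symbol alone, as the Wnt ligand genes, the Frizzled receptors, the secreted Frizzled-related proteins, the Dickkopf antagonists, and *Frzb*, *Wif1*, *Lrp5*, *Lrp6*, *Axin2*, *Lgr4*, *Lgr5*, *Rspo1*, *Rspo2*, *Rspo3*, *Znrf3* and *Rnf43*. These are 49 genes, of which 39 were among the 23609 genes of the table and 38 passed the minimum mean value of 10 and were tested, with 21034 genes tested in all. *Wnt8b*, at a mean of 4.80, was under that minimum. *Wnt1*, *Wnt3*, *Wnt3a*, *Wnt7a*, *Wnt8a*, *Wnt10a*, *Dkk1*, *Dkk4*, *Rspo2* and *Rspo3* were not analysed here.

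All tumors carried PyMT, the polyoma middle T antigen, which the MMTV promoter drives in mammary epithelium and which causes mammary tumors. One group came from littermates that were wildtype for *Resf1*, and the other from animals heterozygous for the gene trap (*Resf1* +/-), a lentiviral EGFP-cre insertion in exon 1 of *Resf1* on a C57BL/6 background, crossed to FVB animals with MMTV-PyMT. Total RNA of whole mammary tumors was sequenced, and 5 tumors of each genotype were compared, called wildtype and gene trap tumors here. Ages are not given in the labels, and the study collected tumors at a humane endpoint. The values are normalized estimated counts per gene, whose sequencing depth is unknown, so that a gene is compared between tumors directly and with other genes only after division by its exon length. In a bulk tumor, fewer cells of a type and less RNA per cell cannot be told apart.

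Wnt ligands are secreted, lipid-modified proteins that bind Frizzled receptors. When a ligand also engages *Lrp5* or *Lrp6*, the complex that marks beta-catenin for destruction is inhibited, and beta-catenin enters the nucleus and activates target genes through the TCF and LEF factors. Other ligands, with *Wnt5a* as the usual example, act mainly through pathways that do not use beta-catenin and govern cell polarity and movement. In the mammary gland Wnt signals are known for their part in branching and in the maintenance of basal cells, and the first Wnt gene was found as a site where the mouse mammary tumor virus integrates. *Axin2* is induced by beta-catenin in most tissues and is widely used as a readout of the pathway.

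The promoters of *Axin2* and *Wif1* are shown because the results turn on these members, and that of *Nkd1*, an inhibitor of Dishevelled that beta-catenin induces, because its values moved with *Axin2*. Each sequence holds the 250 bases before the annotated start on the plus strand, from RefSeq on GRCm38.p6, at chr11:108920099-108920348 for *Axin2*, chr8:88527383-88527632 for *Nkd1* and chr10:121033754-121034003 for *Wif1*. Capitals mark CTTTG, the core of the motif that TCF and LEF factors bind, searched on both strands.
Axin2: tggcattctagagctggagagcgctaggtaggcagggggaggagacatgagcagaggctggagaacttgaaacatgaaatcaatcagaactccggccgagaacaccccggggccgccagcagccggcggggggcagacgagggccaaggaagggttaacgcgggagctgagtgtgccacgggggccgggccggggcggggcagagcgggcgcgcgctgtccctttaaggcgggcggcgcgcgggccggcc
Nkd1: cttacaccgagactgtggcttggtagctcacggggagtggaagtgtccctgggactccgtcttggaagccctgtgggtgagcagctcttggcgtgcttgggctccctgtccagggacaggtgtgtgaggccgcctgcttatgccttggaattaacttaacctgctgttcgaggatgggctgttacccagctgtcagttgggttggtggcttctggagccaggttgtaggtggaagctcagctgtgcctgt
Wif1: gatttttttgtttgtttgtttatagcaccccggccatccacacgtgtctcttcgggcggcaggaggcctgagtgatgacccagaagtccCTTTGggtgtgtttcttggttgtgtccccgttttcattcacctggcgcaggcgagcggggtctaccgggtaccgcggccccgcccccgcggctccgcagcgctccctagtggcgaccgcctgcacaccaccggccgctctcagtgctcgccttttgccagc
The core occurred 1 time before *Wif1*, at 161 bases from the start, and had 0 matches in the windows of *Axin2* and *Nkd1*. It was present in 48.6% of 32851 promoter windows of this length. No binding was measured in these tumors, and a promoter was listed for 31 of the 49 members. The window of *Axin2* was rich in G and C (69.2%, with 24 CG pairs), against 62.8% and 21 CG pairs before *Wif1* and 58.4% and 6 CG pairs before *Nkd1*.

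The gene trap itself was examined first. *Resf1* was 4215, 4397, 3881, 4487 and 3517 in wildtype replicates 1 to 5 and 4029, 3066, 3686, 3392 and 3409 in gene trap replicates 1 to 5. The groups overlapped, with a mean of 4099 ± 400 (SD, n = 5) against 3516 ± 361 (SD, n = 5). The log2 fold change was -0.22, with an unadjusted p of 0.0313 and an adjusted p of 0.9997 in limma, and an exact two-sided permutation test gave p = 0.0635. The smallest p that 5 against 5 tumors allow in that test is 0.00794. With 1 tumor left out, limma's unadjusted p for *Resf1* was above 0.05 without wildtype replicate 1 (0.0610), 2 (0.0715) or 4 (0.0781) and without gene trap replicate 2 (0.0684), 4 (0.0603) or 5 (0.0590). Without gene trap replicate 2 its log2 fold change was -0.17. One tumor, gene trap replicate 2, was unlike the rest in *Gm20390*, whose annotation overlaps another gene, at 0.0718 against 2288 to 2972 in the other tumors. The values of *Resf1*, *Fzd6*, *Lgr4*, *Wif1* and *Frzb* are also given without this tumor. Markers of luminal epithelium were present in every tumor, with all 9 in the table and a summed value of 89506 to 117080 in wildtype and 92794 to 123010 in gene trap tumors.

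No member passed the threshold for a difference between the genotypes after adjustment. In limma, 0 of 38 members and 0 of 21034 genes (0.0%) had an adjusted p under 0.05. At an unadjusted p under 0.05 there was 1 member, the antagonist *Wif1*, which is 1 of 38 beside 479 of 21034 genes (2.28%). Groups without any overlap were found for 0 of 38 members and for 111 genes (0.528%). A positive log2 fold change was found for 24 of the 38 members (63.2%) and for 51.4% of all tested genes, and the median was 0.05 over the members and 0.005 over all genes. This count was 17 of 38 without wildtype replicate 5. The 95% interval of the log2 fold change lay within 0.5 on both sides of zero for 14 members and reached past 1 in size for 8, so that the precision differed widely between members.

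**Figure D1:**
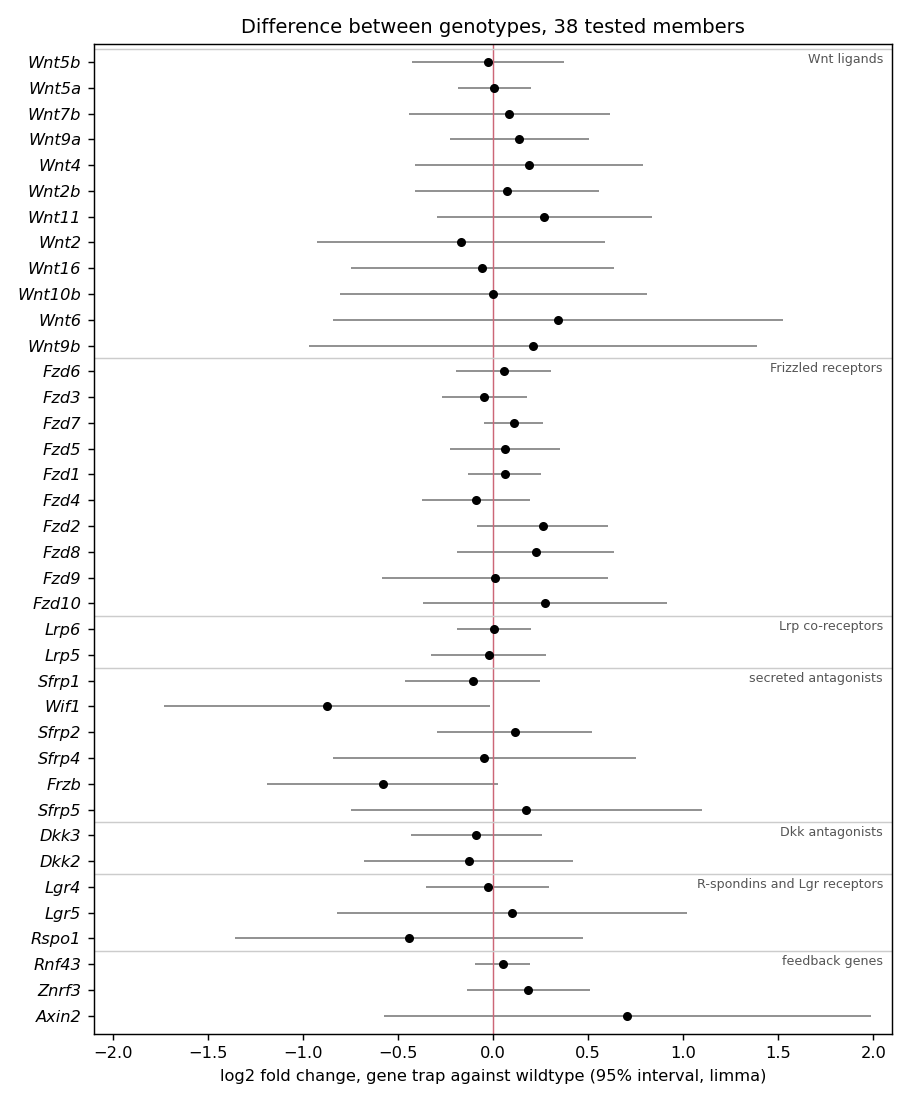
Log2 fold change of each of the 38 tested members in gene trap against wildtype tumors (x axis, log2 scale), with 95% intervals from limma as bars and members grouped by role. The intervals of 37 members include 0, and that of *Wif1* runs from -1.73 to -0.01.

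Wnt ligands formed the largest class, with 19 members, of which 12 were tested. The level per length was held mostly by the pair *Wnt5b* and *Wnt5a*, which made up 79.2% of the summed mean value per kb of exon over the 13 ligands in the table. The mean of *Wnt5b* was 530 per kb, that of *Wnt5a* 132 per kb, and the next ligand, *Wnt7b*, was at 54.6 per kb. The other 10 ligands lay between 1.38 per kb (*Wnt8b*) and 42.2 per kb (*Wnt9a*).

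*Wnt5b*, a close paralog of *Wnt5a*, was 1155, 2213, 1224, 1620 and 1009 in wildtype replicates 1 to 5 and 1262, 1440, 1590, 1197 and 1349 in gene trap replicates 1 to 5. The wildtype tumors held both the highest and the lowest value, and all gene trap tumors lay between them. *Wnt5a* was 1019, 1216, 935, 1005 and 978 in wildtype and 1048, 942, 1150, 1051 and 973 in gene trap tumors. Its groups covered nearly the same range, and the interval of the log2 fold change, -0.19 to 0.20, was the narrowest of the ligands. For *Wnt5b* the log2 fold change was -0.03 (95% interval -0.43 to 0.37).

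Across the 12 tested ligands the log2 fold change was positive for 9 and negative for 3, from -0.17 for *Wnt2* to 0.34 for *Wnt6*, and 0 had an unadjusted p under 0.05. *Wnt6* had the largest estimate of the class on low values, 10.3, 14.2, 14.4, 18.7 and 1.86 in wildtype and 8.33, 5.72, 14.8, 30.2 and 14.8 in gene trap tumors. Its groups overlapped, the standard error was 0.54, and without wildtype replicate 5, the tumor at 1.86, the log2 fold change was -0.14. *Wnt4*, which acts downstream of progesterone in the mammary gland, was between 59.3 and 82.1 in wildtype tumors and was 55.4, 72.1, 51.3, 91.1 and 158 in gene trap replicates 1 to 5. The value of gene trap replicate 5 was above that of all other tumors. *Wnt7b*, a ligand known from macrophages and epithelial cells, ranged from 194 to 412 in wildtype and from 194 to 410 in gene trap tumors.

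**Figure D2:**
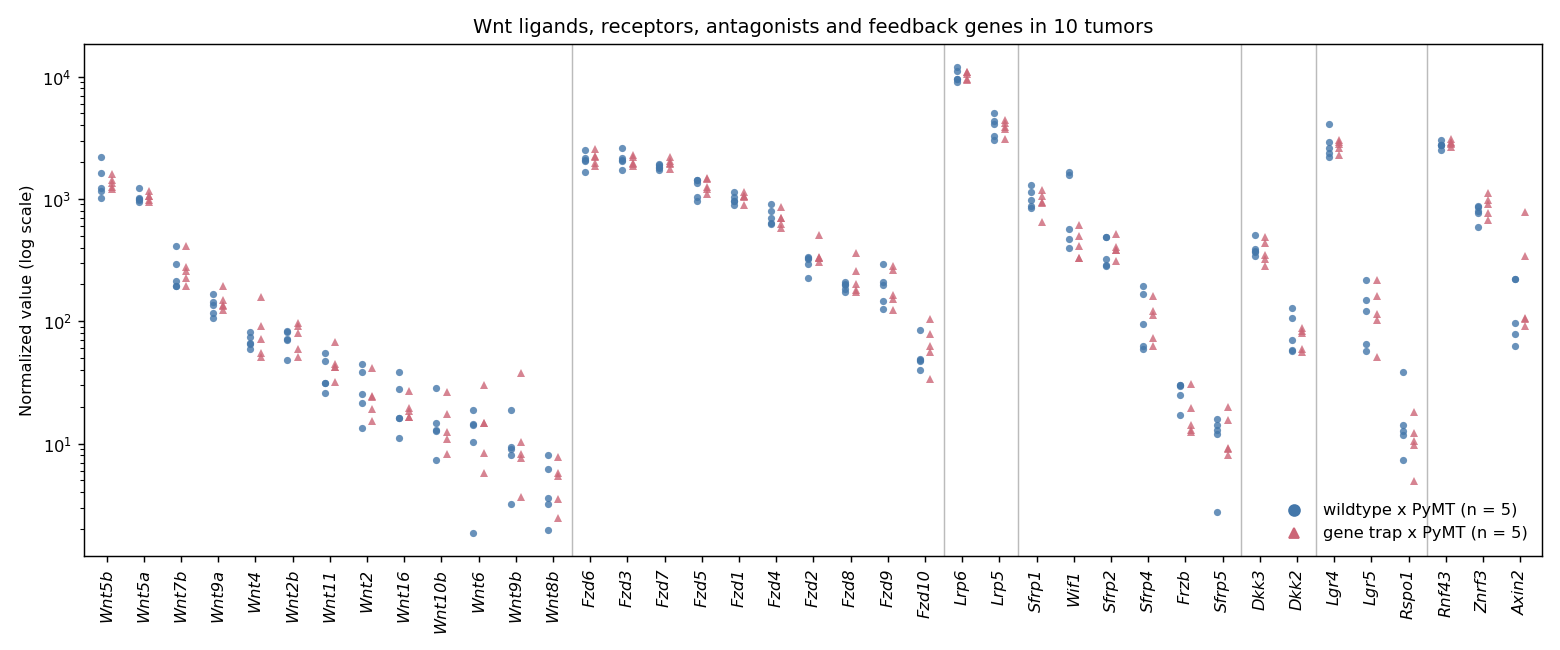
Normalized value (y axis, log scale) of the 39 members in the table in each of 5 wildtype (circles) and 5 gene trap tumors (triangles), grouped by role and ordered by mean within a role. The points of both genotypes overlap for every member, and *Axin2*, *Wif1* and low-level ligands such as *Wnt6* show wide scatter.

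Frizzled receptors were measured for all 10 members, and all were tested. The pair *Fzd6* and *Fzd7* held 48.2% of the summed Frizzled level per kb, with 441 per kb for *Fzd6* and 421 per kb for *Fzd7*, followed by *Fzd1* at 243 per kb. *Fzd6*, a receptor of the planar polarity branch, was 2096, 2170, 2486, 1658 and 2028 in wildtype and 1864, 2576, 2195, 1948 and 2237 in gene trap tumors. *Fzd3*, its partner in planar polarity, ranged from 1732 to 2585 in wildtype and from 1861 to 2276 in gene trap tumors. Both pairs of groups overlapped, with log2 fold changes of 0.05 (95% interval -0.20 to 0.30) and -0.05 (95% interval -0.27 to 0.18). Without gene trap replicate 2 the log2 fold change of *Fzd6* was -0.011. *Fzd7*, a receptor known in basal mammary cells, was one of the steadiest members, at 1730 to 1925 in wildtype and 1771 to 2213 in gene trap tumors, a highest value 1.28 times the lowest.

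Of the Frizzled genes, 8 had a positive and 2 a negative log2 fold change, from -0.09 for *Fzd4* to 0.27 for *Fzd10*, with 0 at an unadjusted p under 0.05. *Fzd10* was 40.0, 47.8, 49.1, 84.4 and 47.0 in wildtype and 33.7, 56.2, 78.3, 104 and 62.5 in gene trap tumors. Both the lowest and the highest value were found in gene trap tumors, and the interval of the log2 fold change ran from -0.37 to 0.91. The log2 fold change was 0.090 without gene trap replicate 4, 0.18 without wildtype replicate 1, 0.44 without wildtype replicate 4 and 0.49 without gene trap replicate 1. *Fzd2* was 508 in gene trap replicate 2, the tumor unlike the rest in *Gm20390*, and 306 to 338 in the other 4 gene trap tumors, beside 224 to 334 in wildtype tumors.

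The co-receptors *Lrp6* and *Lrp5* join Frizzled in the beta-catenin branch, and *Lrp6* had the highest level of all members, at a mean of 749 per kb against 399 per kb for *Lrp5*. *Lrp6* was 9043 to 11911 in wildtype and 9320 to 10929 in gene trap tumors, and its log2 fold change was 0.003 (95% interval -0.19 to 0.20). *Lrp5* was 3293, 4308, 4062, 5005 and 3018 in wildtype and 3088, 3868, 4139, 4392 and 3707 in gene trap tumors. The groups overlapped across nearly the whole range, with a log2 fold change of -0.02 (95% interval -0.32 to 0.28).

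Secreted antagonists bind Wnt ligands outside the cell. *Wif1* had the highest mean per kb of this class, 283, followed by *Sfrp1* at 226 and *Sfrp2* at 180. The place of *Wif1* above *Sfrp1* rested on the high values of wildtype replicates 1 and 3. *Wif1* (ENSMUSG00000020218) was 1672, 474, 1582, 564 and 395 in wildtype replicates 1 to 5 and 330, 612, 411, 328 and 496 in gene trap replicates 1 to 5. Wildtype replicates 1 and 3 were far above all other tumors, while the remaining 3 wildtype tumors lay within the range of the gene trap group. Its log2 fold change was -0.87 (SE 0.39, 95% interval -1.73 to -0.01), which is a level 45.4% lower with the gene trap. The unadjusted p was 0.0468 and the adjusted p 0.9997 in limma, and the exact two-sided permutation test gave p = 0.127. Without wildtype replicate 1 the log2 fold change was -0.60 (limma, unadjusted p = 0.125), and without wildtype replicate 3 it was -0.62 (limma, unadjusted p = 0.125). The unadjusted p was also above 0.05 without gene trap replicate 1 (0.0934), 3 (0.0747), 4 (0.0978) or 5 (0.0552), and was 0.0340 without gene trap replicate 2.

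*Frzb*, a secreted Frizzled-related protein that is named here after its values were seen, was 29.3, 30.2, 17.2, 30.1 and 24.9 in wildtype and 12.9, 30.4, 19.7, 12.5 and 14.1 in gene trap tumors. Gene trap replicate 2 held the highest value of all and the other 4 gene trap tumors were in the lower part of the range. The log2 fold change was -0.58 (95% interval -1.19 to 0.03), with an unadjusted p of 0.0597 in limma and an exact two-sided permutation p of 0.0952. Without gene trap replicate 2 its value was -0.78 (limma, unadjusted p = 0.00723), and without wildtype replicate 3 it was -0.72 (limma, unadjusted p = 0.0274). With any other single tumor left out, limma's unadjusted p was above 0.05, up to 0.132. *Sfrp1* was between 836 and 1287 in wildtype and between 653 and 1190 in gene trap tumors (log2 fold change -0.11, 95% interval -0.46 to 0.25). Over the 6 antagonists, the log2 fold change was negative for 4 and positive for 2.

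The Dickkopf proteins inhibit *Lrp5* and *Lrp6*, with the exception of *Dkk3*, which does not bind them. *Dkk3* was 366, 504, 342, 372 and 393 in wildtype and 489, 347, 432, 324 and 284 in gene trap tumors. *Dkk2* was 56.9 to 128 in wildtype and 56.3 to 88.8 in gene trap tumors. Both log2 fold changes were small and negative, -0.09 (95% interval -0.43 to 0.25) and -0.13 (95% interval -0.68 to 0.42), and both groups overlapped.

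R-spondins strengthen Wnt signals by binding Lgr receptors and withdrawing the ubiquitin ligases *Rnf43* and *Znrf3* from the surface. *Lgr4* had a mean of 474 per kb against 12.2 per kb for *Lgr5*, a stem cell marker in intestine and a target of beta-catenin. A further receptor of this family that is no member, *Lgr6*, had normalized values of 1676 to 3466 over the 10 tumors, not divided by length. *Lgr4* was 2219, 4087, 2393, 2907 and 2618 in wildtype and 2796, 2285, 2913, 3051 and 2627 in gene trap tumors, and wildtype replicate 2 alone was above the highest gene trap tumor. For *Lgr4* the log2 fold change was -0.03 (95% interval -0.35 to 0.29) and was 0.034 without gene trap replicate 2. *Lgr5* was spread 4.26-fold, from 56.7 to 218 in wildtype and from 51.1 to 216 in gene trap tumors. *Rspo1* was low, at 11.7, 14.2, 12.7, 7.27 and 38.5 in wildtype and 10.6, 12.2, 17.9, 9.74 and 4.95 in gene trap tumors. Its log2 fold change of -0.44 (95% interval -1.36 to 0.47) was -0.10 without wildtype replicate 5, the tumor at 38.5.

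*Rnf43*, *Znrf3* and *Axin2* restrain Wnt signals, the first pair by removing Frizzled from the surface and *Axin2* as a scaffold of the destruction complex. All 3 had a positive log2 fold change and 0 had an unadjusted p under 0.05. *Rnf43* was the steadiest of all members, with values from 2531 to 3026 in wildtype and 2640 to 3061 in gene trap tumors, a highest value 1.21 times the lowest. *Znrf3* was 772, 859, 791, 881 and 587 in wildtype and 670, 901, 982, 1126 and 774 in gene trap tumors (log2 fold change 0.19, 95% interval -0.14 to 0.51). This was 0.088 without wildtype replicate 5, 0.095 without gene trap replicate 4 and 0.28 without gene trap replicate 1.

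*Axin2* (ENSMUSG00000000142) was 63.1, 220.0, 78.6, 221 and 97.4 in wildtype replicates 1 to 5 and 91.8, 105, 341, 777 and 107 in gene trap replicates 1 to 5. High tumors were found in both genotypes: wildtype replicates 2 and 4 and gene trap replicates 3 and 4 were at 220.0 or above, and the other 6 tumors were between 63.1 and 107. The highest value was 12.3 times the lowest, second to *Wnt6* among the tested members. The log2 fold change was 0.70 (SE 0.59, 95% interval -0.58 to 1.98), with an unadjusted p of 0.254 in limma and an exact two-sided permutation p of 0.373. Without gene trap replicate 4 the log2 fold change was 0.21.

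After these values were seen, the genes whose log2 values followed *Axin2* over the 10 tumors were ranked by the size of Pearson's r. *Apcdd1*, a membrane protein that binds Wnt ligands and is induced by beta-catenin, ranked 1 of 21033 genes. It was 90.1, 283, 126, 276 and 118 in wildtype and 118, 114, 352, 1027 and 134 in gene trap tumors, with the same 4 tumors high as for *Axin2*. Pearson's r was 0.99 (permutation p = 6e-05, adjusted p = 0.9999) and Spearman's rho was 0.87 (permutation p = 0.00208, adjusted p = 0.965), and r was 0.97 without gene trap replicates 3 and 4. *Nkd1* ranked 5, at 29.2, 109, 19.5, 55.4 and 31.4 in wildtype and 27.0, 31.3, 57.9, 202 and 24.0 in gene trap tumors. Its r was 0.91 (permutation p = 0.00070, adjusted p = 0.9999) and its rho 0.78 (permutation p = 0.0104, adjusted p = 0.965), with r = 0.85 without the same pair of tumors. Other target genes of beta-catenin did not all follow *Axin2*. Pearson's r was 0.72 for *Myc*, 0.71 for *Nkd2*, 0.69 for *Tcf7*, 0.64 for *Jag1* and 0.53 for *Lef1*. It was 0.26 for *Tnfrsf19*, 0.20 for *Bmp4*, 0.18 for *Sox4*, 0.13 for *Cd44* and 0.09 for *Sox9*. Negative values were found for *Ephb3* (-0.05), *Ephb2* (-0.08), *Prom1* (-0.18), the member *Lgr5* (-0.26) and *Ccnd1* (-0.40). Of these genes *Myc*, *Nkd2*, *Tcf7* and *Jag1* had an unadjusted permutation p under 0.05, beside 3.92% of all genes. Their adjusted p was 0.9999.

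Among the other members, *Fzd10* (r = 0.83, permutation p = 0.00242, adjusted p = 0.9999, rho = 0.83, permutation p = 0.00458, adjusted p = 0.965) and *Znrf3* (r = 0.78, permutation p = 0.00735, adjusted p = 0.9999, rho = 0.77, permutation p = 0.0128, adjusted p = 0.965) came next. Without gene trap replicates 3 and 4, r was 0.60 and 0.45, so that the relations of *Fzd10* and *Znrf3* rested in part on those tumors. At an unadjusted p under 0.05, 3 of 37 members were correlated with *Axin2*, beside 3.92% of all genes, and 0 genes passed the adjustment. The third was *Lrp5* (r = 0.65, permutation p = 0.0428, adjusted p = 0.9999, rho = 0.73), whose r was 0.73 without those tumors. *Lgr4* had r = 0.61 (permutation p = 0.061) and rho = 0.81 (permutation p = 0.00693, adjusted p = 0.965), and its r was 0.81 without them. The size of r thus fell for some members and rose for others. Over the 6 tumors with *Axin2* between 63.1 and 107 only, r was 0.74 for *Apcdd1* (exact permutation p = 0.106), 0.16 for *Nkd1* (exact permutation p = 0.742), 0.54 for *Fzd10* (exact permutation p = 0.272) and -0.04 for *Znrf3* (exact permutation p = 0.947). These 6 tumors were chosen by their *Axin2* values, which narrows the range of *Axin2*, and they are few. The split therefore cannot tell whether the 4 genes differ in their relation to *Axin2*.

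**Figure D3:**
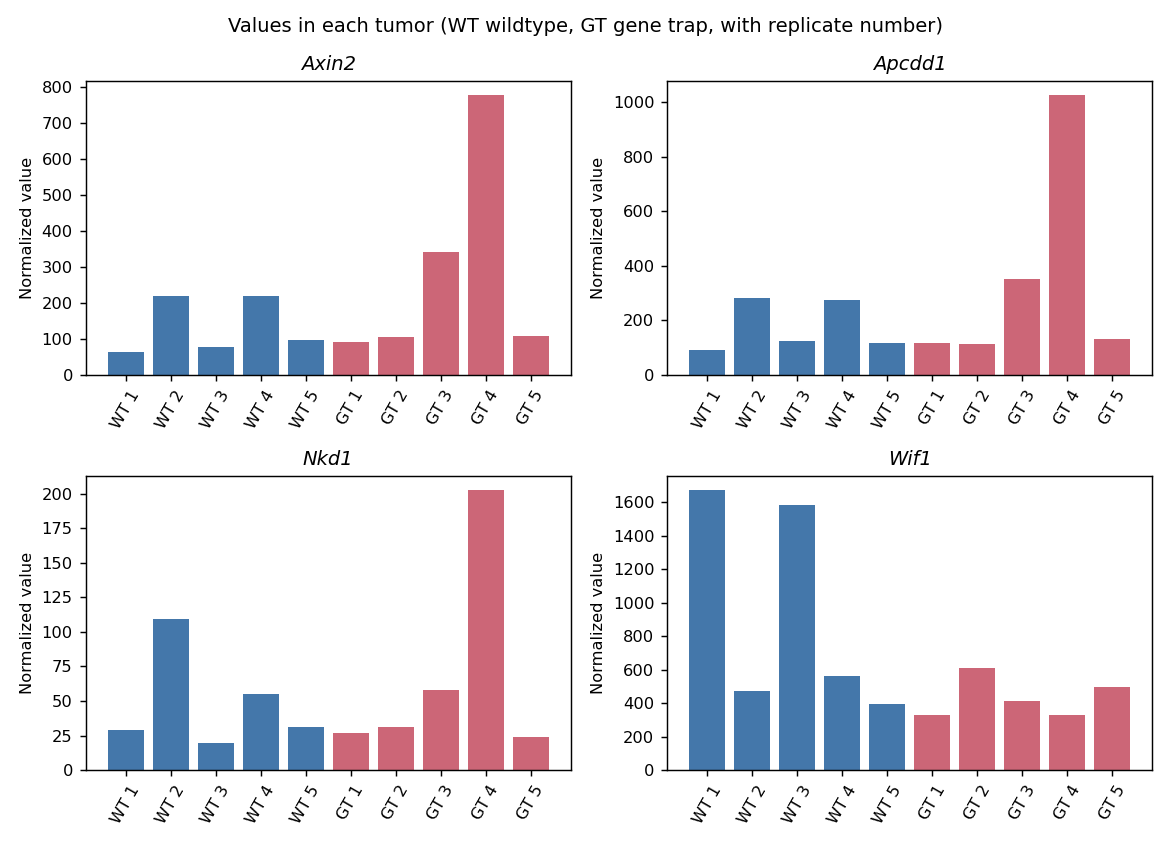
Normalized values (y axis, from 0) of *Axin2*, *Apcdd1*, *Nkd1* and *Wif1* in each tumor (x axis), with 1 bar a tumor, wildtype in blue and gene trap in red. *Axin2*, *Apcdd1* and *Nkd1* are high in wildtype replicates 2 and 4 and gene trap replicates 3 and 4, and *Wif1* is high in wildtype replicates 1 and 3.

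Genes of the pathway that are no members were followed in 5 lists. The lists share some genes, as *Apcdd1*, *Tcf7* and *Lef1* are target genes and also stand in another list. For each list the count of genes at an unadjusted p under 0.05 was 0 in either direction. This was 0 of 13 secretion and extracellular modulators (median log2 fold change 0.01), 0 of 14 alternative receptors and planar polarity genes (0.07), 0 of 21 genes of Dishevelled and the destruction complex (-0.03), 0 of 16 nuclear effectors (0.04) and 0 of 16 beta-catenin target genes (0.06). The target genes had a positive log2 fold change in 13 of 16, beside 51.4% of all tested genes. This count was not tested, since target genes can vary together. Of these target genes, *Apcdd1*, *Nkd1* and *Nkd2* had their 4 highest values in the same tumors as *Axin2*. The smallest p of the 5 lists was that of *Reck*, a receptor partner for Wnt7 ligands, at 291 ± 47.1 (SD, n = 5) in wildtype and 237 ± 37.1 (SD, n = 5) in gene trap tumors (log2 fold change -0.30, limma unadjusted p = 0.0593, adjusted p = 0.9997). *Prickle2* and *Ryk*, of the planar polarity list, had log2 fold changes of -0.15 each (limma unadjusted p = 0.0843 and 0.0950), and *Dvl2*, a Dishevelled protein, had 0.21 (limma unadjusted p = 0.0957). The other genes with the 3 smallest p of their list were *Gpc3* (-0.38) and *Kremen1* (0.098), which act at the cell surface, *Daam2* (0.26) of the planar polarity list, *Csnk1a1* (-0.087) and *Axin1* (0.10) of the destruction complex, and the nuclear effectors *Pygo2* (0.13), *Pygo1* (0.17) and *Aes* (-0.10), each with its log2 fold change. Among the target genes these were the cyclin gene *Ccnd1* (-0.18), the Notch ligand gene *Jag1* (0.18) and *Tnfrsf19* (-0.25). Limma's unadjusted p was between 0.131 and 0.350 for these 11 genes.

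Markers of other cells were compared because Wnt genes are expressed in stroma and in basal cells. Of the 7 basal markers 1 had an unadjusted p under 0.05, *Krt17* (log2 fold change -0.63, limma unadjusted p = 0.0174, adjusted p = 0.9997), beside 2.28% of all tested genes. A negative log2 fold change was found for 6 of the 7, beside 48.6% of all tested genes. The summed basal level was 5122 to 6625 in wildtype and 3995 to 6216 in gene trap tumors. Of 8 pericyte and smooth muscle markers 1 had an unadjusted p under 0.05, *Myh11* (log2 fold change -0.67, limma unadjusted p = 0.0186, adjusted p = 0.9997). In this list 3 log2 fold changes were positive (*Kcnj8*, *Abcc9* and *Pdgfrb*) and 5 negative, so that *Myh11* does not stand for the whole list. The next smallest p were those of *Acta2* (-0.43, limma unadjusted p = 0.0505) and *Cnn1* (-0.64, limma unadjusted p = 0.0616). The summed level of the list was 6363 to 8963 in wildtype and 5573 to 8444 in gene trap tumors. The 12 fibroblast markers had 0 at this threshold, 10 positive and 2 negative log2 fold changes, and a summed level of 44365 to 97405 in wildtype and 60115 to 136699 in gene trap tumors. Over all tested genes 51.4% were positive. No test was made of these counts, since markers of a cell type can vary together. All basal and fibroblast markers were above 0 in every tumor, but so was every gene of the table, so that this does not show that these cells were present. The part of these cells in the values of *Wif1* and *Frzb* was not tested.

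The scores of 3 marker lists (fibroblast, basal epithelium and hormone-sensing luminal cells), each the mean over its genes of the z score across the 10 tumors, were then set against each tested gene. With *Axin2* these made 4 families of correlations, and the scores of the other cell types were not correlated with the members. With the fibroblast score, 9 of 38 members were correlated at an unadjusted p under 0.05 (4 positive, 5 negative), beside 9.69% of all genes, and 0 members and 0 genes passed the adjustment. This count was 4 without wildtype replicate 5 and 6 without gene trap replicate 1, the tumors with the highest scores. *Wnt9a* followed the score most closely, at 118, 134, 144, 106 and 168 in wildtype and 196, 123, 149, 135 and 134 in gene trap tumors. Its highest values were in gene trap replicate 1 and wildtype replicate 5, which also had the highest fibroblast scores, 1.67 and 1.15. Pearson's r was 0.91 (permutation p = 0.00039, adjusted p = 0.167), rho was 0.73 (permutation p = 0.0200, adjusted p = 0.555), and r was 0.72 without those 2 tumors.

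*Sfrp2*, an antagonist that fibroblasts express in many tissues, was 287, 324, 489, 285 and 489 in wildtype and 516, 381, 379, 312 and 404 in gene trap tumors. It had r = 0.86 with the fibroblast score (permutation p = 0.00056, adjusted p = 0.179) and rho = 0.81 (permutation p = 0.00675, adjusted p = 0.516), and r = 0.75 without the 2 tumors with the highest scores. *Lrp5* and *Fzd5*, a receptor of epithelial cells, were the members with the most negative values, at r = -0.80 (permutation p = 0.00488, adjusted p = 0.301, rho = -0.72, permutation p = 0.0234, adjusted p = 0.561) and r = -0.79 (permutation p = 0.00506, adjusted p = 0.302, rho = -0.65, permutation p = 0.0491, adjusted p = 0.579). Without the same tumors these were -0.51 and -0.66. The other 5 members counted were *Wnt2* and *Sfrp4*, with a positive r, and *Fzd9*, *Znrf3* and *Fzd10*, with a negative r. Without the 2 tumors r was 0.36 and 0.40 for the former and -0.29, -0.10 and -0.36 for the latter, smaller in size for all 5. Leaving out the tumors with the highest scores narrows the range of the score. It therefore cannot tell whether these relations hold among the other tumors.

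With the basal score, 0 of 38 members had an unadjusted p under 0.05 for Pearson's r, beside 3.82% of all genes. The member with the largest size was *Fzd7*, at r = -0.60 (permutation p = 0.0663, adjusted p = 0.939, rho = -0.56, permutation p = 0.0959), followed by *Wnt9b* (r = 0.52, permutation p = 0.123), *Dkk2* (r = 0.48, permutation p = 0.165) and *Wnt11* (r = -0.47, permutation p = 0.168). Without wildtype replicate 2 and gene trap replicate 4, r of *Fzd7* was -0.80.

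With the score of hormone-sensing luminal cells, 3 of 38 members were correlated (1 positive, 2 negative), beside 5.27% of all genes, and 0 members passed the adjustment. *Wnt4* had r = 0.84 (permutation p = 0.0135, adjusted p = 0.740) and rho = 0.61 (permutation p = 0.0650, adjusted p = 0.865), but r was 0.40 without wildtype replicate 3 and gene trap replicate 5. Those tumors had the highest scores, and leaving them out also narrows the range of the score. Gene trap replicate 5, with the highest *Wnt4*, also held the highest score, 2.12. *Pgr*, the progesterone receptor gene, was 1105 there against 77.6 to 257 in the other tumors. *Pgr* is one of the genes of the score, so its value is part of that 2.12. *Dkk3* had r = -0.72 (permutation p = 0.0146, adjusted p = 0.740, rho = -0.68, permutation p = 0.0345, adjusted p = 0.780) and -0.47 without those tumors. *Fzd7* had r = -0.65 (permutation p = 0.0481, adjusted p = 0.938, rho = -0.82, permutation p = 0.00571, adjusted p = 0.744) and -0.60 without them, and *Wnt2b* had r = -0.58 (permutation p = 0.0727). The count was 5 without wildtype replicate 5. With 5 tumors a genotype, no correlation was computed within a genotype, and the 10 tumors include both genotypes, so that the part of genotype in these correlations was not tested.

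**Figure D4:**
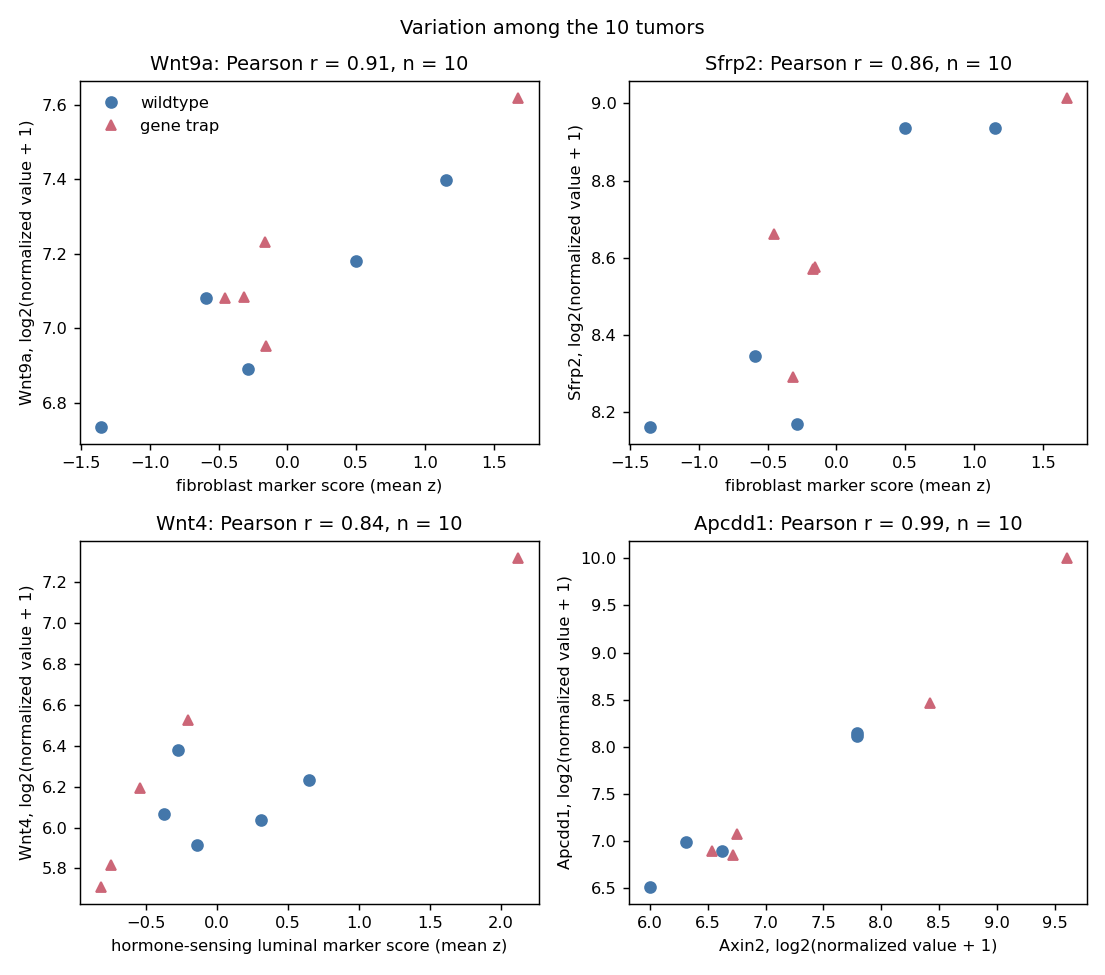
Log2 values of *Wnt9a*, *Sfrp2* and *Wnt4* (y axes) against marker scores (x axes, mean z score), and *Apcdd1* against *Axin2* (both log2), with 1 point a tumor, wildtype as circles and gene trap as triangles. *Wnt9a* and *Sfrp2* follow the fibroblast score (r = 0.91 and 0.86), *Wnt4* is highest in the tumor at a score of 2.12, and *Apcdd1* follows *Axin2* (r = 0.99).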

How the data were processed

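RNA-seq of whole mammary tumors was used. The labels list 16 tumors, 8 per group. Of the 16 columns of the table, 10 were matched to a tumor by name (5 per group) and 6 were not used. The authors deposited estimated counts normalized by the median ratio method, a signal with 0 zeros whose median ratio to the geometric mean was 1.005 to 1.006, so depth is unknown and whole reads could not be recovered. Column totals were 31995078 to 42153593. The submitters' processing notes name Partek, STAR 2.7.8a, DESeq2 and mm39, and whether counting used strand is not given in the sources used here. The plan took the tumors whose columns could be matched by name.

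Values were transformed to log2(value + 1), so that fold changes of low genes are understated. Genes with a mean of at least 10 were fitted with limma 3.58.1 (R 4.3.3) with a mean-variance trend and genotype as the only factor, and p-values were adjusted by the Benjamini-Hochberg method over all 21034 genes. An exact two-sided permutation test over 252 arrangements of the tumors was used for single genes. Correlations with marker scores used 100000 permutations per gene (two-sided). A replicate number shared by both groups marks separate animals, whose deviations were correlated at -0.16 to 0.15, so numbers were not treated as pairs. Exon lengths came from GENCODE mouse release 21, for all 39 members in the table, and promoters from RefSeq GRCm38.p6. Other than these promoter windows, no coordinates are given, because the builds differ. Calculations were tested on simulated data.

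Genes named are *Resf1*, *Axin2*, members with an unadjusted p under 0.05 or without overlap, in each role class the 2 with the highest mean and the 1 with the largest fold change, the 3 genes with the smallest p in each pathway list, and up to 4 members with the largest r for each score. Other names were chosen after their values were seen. Members and lists were chosen with earlier results of these data known, and the correlations with *Axin2* after the data were seen. The alternatives were other filters, pseudocounts, quantile normalization, weights per tumor, no trend, the replicate number as a block and each tumor left out. Figures were drawn with matplotlib 3.10.9 (Python 3.11.15).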

Additional observations from a re-analysis of the deposited data

Results flagged for a closer look

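Each group of 5 tumors was searched, for each of the members in the table and *Resf1*, for a highest or lowest tumor far from the rest, by Dixon's criterion at 0.71 of the range. Of 80 groups 6 held such a tumor, where 4 are expected by chance at 1 in 20. The 6 lay in 6 different tumors. *Fzd10* was 84.4 in wildtype replicate 4, where the rest of its group lay between 40.0 and 49.1. *Fzd2* was 508 in gene trap replicate 2, against 306 to 338 in its group. *Rspo1* was 38.5 in wildtype replicate 5, against 7.27 to 14.2. *Sfrp5*, a secreted antagonist, was 2.74 in wildtype replicate 1, against at most 15.7 in its group. *Wnt16* was 26.9 in gene trap replicate 3, against 16.4 to 19.4. *Wnt9b* was 37.8 in gene trap replicate 5, the tumor with the highest *Wnt4* and *Pgr*, against 3.63 to 10.3.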

How the results depend on the processing

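No alternative gave a gene with an adjusted p under 0.05, and the count of members was 0 under each. The count of members with an unadjusted p under 0.05 was 1 and became 0 with a minimum mean of 50 and 2 with weights per tumor (*Wif1* and *Frzb*), and lay between 0 and 2 when 1 tumor was left out. Without a variance trend, and without wildtype replicate 3, the 1 member was *Frzb* in place of *Wif1*. The replicate block, which pairs animals only by number, gave 0 members and 426 genes. Genes with an unadjusted p under 0.05 were 308 to 692 with 1 tumor left out, the lowest without wildtype replicate 4, and 326 to 580 otherwise. Members with a positive log2 fold change numbered 17 to 26 with 1 tumor left out. Of 19 members with alternatives, 7 kept their direction in every one. The direction turned for *Fzd6* (-0.0031) and *Lgr4* (0.033) with weights per tumor and for *Wnt5a* (-0.0071) with quantile normalization. With 1 tumor left out, values ran from -0.25 to 0.041 for *Dkk2*, -0.19 to 0.0036 for *Dkk3*, -0.12 to 0.029 for *Fzd3*, -0.026 to 0.12 for *Fzd6*, -0.11 to 0.11 for *Lgr4*, -0.13 to 0.39 for *Lgr5*, -0.11 to 0.070 for *Lrp5*, -0.040 to 0.060 for *Lrp6*, -0.19 to 0.022 for *Sfrp1*, -0.034 to 0.067 for *Wnt5a*, -0.14 to 0.14 for *Wnt5b* and -0.14 to 0.60 for *Wnt6*. Members correlated with a score numbered 4 to 8 (fibroblast), 0 to 1 (basal) and 2 to 5 (hormone-sensing luminal) with 1 tumor left out. The r of *Axin2* was 0.98 to 0.99 with *Apcdd1* and 0.81 to 0.95 with *Nkd1*, an alternative added after seeing the data. The cause of these changes was not tested. Scaling by TMM factors had been foreseen and was left out, since it needs counts. *Wnt6*, *Rspo1* and *Frzb* gave no value at a minimum mean of 50. Depth is unknown, and the number of tumors limits the precision.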

Other observations

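Some cell type lists outside the comparisons above varied between tumors. The 6 milk protein genes all had a negative log2 fold change (median -0.34), beside 48.6% of all tested genes, with 0 at an unadjusted p under 0.05 in limma. Their summed value was 135298 to 194375 in wildtype and 137269 to 191842 in gene trap tumors. Most of this sum was *Csn3*, at 127658 to 180601 over the tumors. *Csn2* ranged from 76.7 to 3230 (log2 fold change -1.24, limma unadjusted p = 0.187). Skeletal muscle markers, of which 4 of 5 were in the table, summed to between 673 and 10218 in wildtype and 1610 and 4745 in gene trap tumors. The 7 macrophage markers had a summed value of 10971 to 16020 in wildtype and 10806 to 14414 in gene trap tumors, and the 7 endothelial markers one of 2688 to 4722 and 2452 to 4470. Lymphocyte markers (5 of 7 in the table) summed to 65.8 to 207 and 68.7 to 358, adipocyte markers (2 of 5) to 1092 to 4128 and 551 to 2907, and keratinocyte markers (1 of 5) to 49.9 to 1270 and 53.8 to 671. The 7 measured hormone-sensing luminal markers summed to 4773 to 6339 in wildtype and 4616 to 10165 in gene trap tumors. None of these lists had a gene at an unadjusted p under 0.05 in limma.

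*Awat2* and *Psapl1*, chosen after their values were seen, were high in the same 2 wildtype tumors as *Wif1*. *Awat2*, an enzyme of wax ester synthesis, was 139 and 258 in wildtype replicates 1 and 3, and 22.4 to 34.6 elsewhere. *Psapl1* was 755 and 1030.4 in the same tumors, against 371 to 540.3 in the others.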
